A study of Daphnia magna with 3 samples.

Results

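Eggs and carcass were compared as 3 libraries against 3 in Daphnia magna, a freshwater water flea, and these 6 of the 21 libraries in the series are the ones whose labels name these body parts. Every animal carried the genotype IL-M1-8 and received no treatment beyond standard culture. Per the labels' protocols, cultures stood at 20 °C in ADaM medium (20 mL for each adult) and received a green alga every day, at 100000 cells per mL. Each of the pools numbered 3, 4 and 7 holds 7 barcoded body parts, of which barcode bc02 marks the eggs and bc07 the carcass, also labelled body. The carcass is listed beside hemocytes, gut, antenna, head and carapace, and the labels do not say which organs it still held, whether it included the ovary, or how old the eggs were. They also do not say how many animals entered a library or whether the pools came from separate cultures. The p-values therefore measure only the spread between these libraries, which may be technical.

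A Daphnia female lays its eggs into a brood chamber between the carapace and the trunk, where the embryos develop until they are released. Animal eggs are loaded in the ovary with maternal messenger RNA and yolk, and early development runs on that store before the embryo's own transcription takes over. The trunk of an adult holds differentiated tissue such as muscle, fat cells, nerve cord, epidermis and the limbs that filter food. These are facts about the animal and not results of these libraries.

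The libraries were cDNA made with a ligation protocol for Nanopore sequencing. The table counts reads on 33957 model transcripts, each called a gene here. None of the identifiers matched the RefSeq gene table (0 of 33957), so the deposited table pairs no gene with a name and the tissues could not be checked against marker genes. No sequence is shown for the same reason. Genes are therefore described by identifier, contig, length and level.

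The egg libraries held 175876 reads in pool 3, 159154 in pool 4 and 326037 in pool 7. The carcass libraries held 262185, 177033 and 416875. Of the 33957 genes, 16004 had at least 1 read in the 6 libraries, and 3467 passed the count filter and were tested. These tested genes held 85.5% to 91.2% of a library's reads. Levels are given as CPM, meaning counts on a scale of 1000000 reads on the tested genes after TMM scaling. TMM sets scaling factors from the bulk of genes so that a few very abundant genes do not push down the rest.

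Egg reads were spread over many genes, whereas carcass reads were concentrated on few. The 10 most counted genes took 8.41% of egg reads in pool 3, 6.15% in pool 4 and 10.22% in pool 7. In carcass they took 27.04%, 28.71% and 15.19%. Every carcass library lay above every egg library, with means of 23.65% ± 7.37 (SD, n = 3) and 8.26% ± 2.04 (SD, n = 3). The exact permutation test gave p = 0.1, two-sided, which is the smallest that 3 libraries against 3 can give (0.3 after Benjamini-Hochberg adjustment over the 3 library measures tested). It took 513, 482 and 468 genes to reach 50% of the egg reads, against 155, 132 and 251 genes in carcass. With each library set to 1000000 reads, 1970 to 2057 genes reached 100 reads in eggs and 1343 to 1487 in carcass. At most 1 gene of an egg library reached 10000 reads, against 3 to 8 genes of a carcass library.

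**Figure D1:**
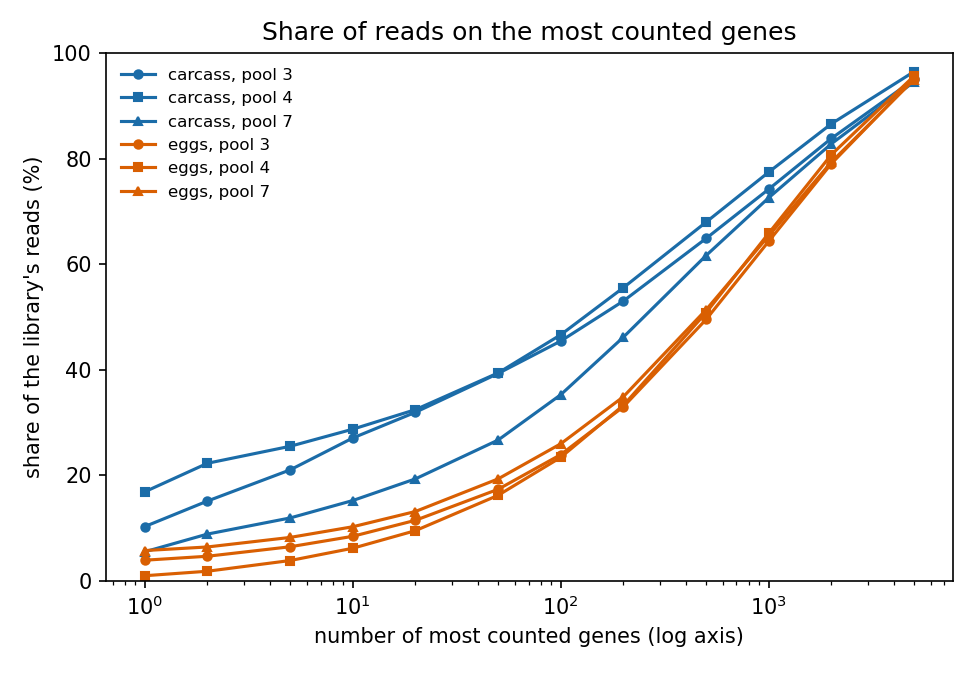
Share of a library's reads (%, vertical axis) taken by its most counted genes (number of genes, log axis) in each egg and carcass library. At 1 gene the body parts overlap, with 5.71% in eggs and 5.48% in carcass of pool 7; at 100 genes eggs stood at 23.37% to 25.94% and carcass at 35.24% to 46.6%, and at 1000 genes eggs were still lower.

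The number of genes seen was not told apart between the body parts. Scaled down to 159154 reads each, the egg libraries gave 9123.2, 9067.0 and 9062.0 genes and the carcass libraries 9830.5, 8924.6 and 9810.6. The ranges overlapped, and the difference of -437.8 genes (eggs minus carcass) had an exact permutation p = 0.4, two-sided (0.4 adjusted over the 3 measures); without the carcass library of pool 4 it was -736.5. The mean length of the model transcripts, weighted by reads, was 3136.2, 2978.6 and 3205.0 bases in eggs and 3261.4, 3595.1 and 3123.8 bases in carcass. These ranges overlapped too (exact permutation p = 0.3, two-sided, 0.4 adjusted). The difference of -220.2 bases was -86.0 without the carcass library of pool 4.

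The most counted gene over the 6 libraries together was a model of 3603 bases on contig falcon_000292F. It took 3.88% of the reads in eggs of pool 3, 0.94% in pool 4 and 5.71% in pool 7. In carcass it took 10.26%, 5.40% and 5.48%. On the CPM scale the groups did not overlap, since the highest egg library stood at 49900 CPM and the lowest carcass library at 74400 CPM. The difference did not pass edgeR's quasi-likelihood test (log2 fold change -1.90 ± 1.27 (SE), adjusted p = 0.302), although DESeq2 called it (-1.93 ± 0.62, adjusted p = 0.0106) and so did limma voom (-2.19 ± 0.66, adjusted p = 0.0368).

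Libraries of 1 body part resembled each other far more than they resembled the other body part. Across the 3467 tested genes, Spearman correlations of log2 CPM were 0.79 to 0.86 between egg libraries, 0.74 to 0.80 between carcass libraries and 0.24 to 0.50 between an egg and a carcass library. Genes are not independent replicates, so these values describe the libraries and carry no test. Carcass libraries varied more than egg libraries: the biological coefficient of variation over the tested genes was 31.7% in eggs and 44.8% in carcass. The median standard deviation of a gene's log2 CPM was 0.36 in eggs and 0.55 in carcass.

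Of the 3467 genes tested, 863 differed between eggs and carcass (24.9%; edgeR quasi-likelihood test, two-sided, Benjamini-Hochberg adjusted p under 0.05). In eggs 282 genes were higher (8.13%) and 581 were lower (16.8%). At an unadjusted p under 0.05 the counts were 521 and 781. All these counts include genes with few reads in 1 body part, which passed the count filter through the other. The direction held within every pool for 282 of the 282 higher genes and for 578 of the 581 lower genes. The same libraries chose these genes, so this agreement describes the calls and is no replication. In these bulk libraries, fewer cells of a type and less RNA per cell cannot be told apart. The balance between directions depended on scaling. Higher genes made up 32.7% of the calls with TMM factors and 30.5% with RLE factors, but 76.8% when libraries were scaled by total reads alone (1231 higher, 372 lower). That scaling moved the median log2 fold change of all tested genes from -0.02 to 0.84, so fold changes here are relative to the bulk of genes. Under total-read scaling all 282 higher genes were still called higher, 372 of the 581 lower genes were still called lower, and 0 were called in the opposite direction. The count of higher genes was 134 without the carcass library of pool 3 and 163 without the egg library of pool 3, while without any 1 library the count of lower genes ran from 468 to 698.

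**Figure D2:**
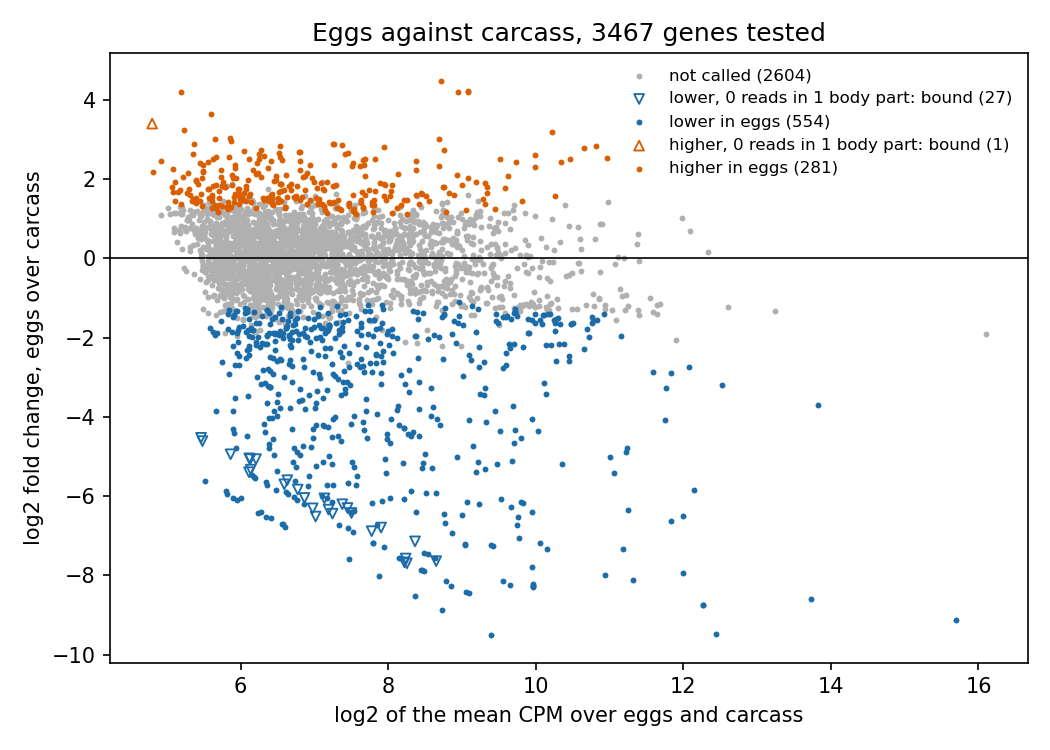
log2 fold change (eggs over carcass, vertical axis) against the log2 mean CPM (horizontal axis) for the 3467 tested genes, coloured by call, with open triangles at the bound of the 1 higher and 27 lower genes that had 0 reads in 1 body part. Genes with more than 3 reads in both body parts reached 4.48 among the higher and -9.47 among the lower, and the medians were 1.75 and -2.87.

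On the TMM scale the directions differed in steepness. Total-read scaling moved the median log2 fold change of all tested genes to 0.84. A shift of that direction makes rises larger and falls smaller, and the steepness on that scale was not determined. Genes higher in eggs had a median log2 fold change of 1.75, with the middle 50% between 1.47 and 2.23, and their median level was 160 CPM in eggs against 42.6 CPM in carcass. Genes lower in eggs had a median of -2.87, with the middle 50% between -5.15 and -1.84, and a median of 32.4 CPM in eggs against 311 CPM in carcass. Over all tested genes the median levels were 100 CPM in eggs and 118 CPM in carcass, and the median log2 fold change was -0.02. A change of 8-fold or more was found for 12 of the 282 higher genes (4.3%) and for 279 of the 581 lower genes (48.0%). A change of 32-fold or more was found for 0 higher genes and 156 lower genes. In these values a gene with 0 reads in 1 body part stands at a bound, which sets that body part at 3 reads over its 3 libraries. Genes with 1 to 3 reads there keep their fitted values. More than 3 reads in both body parts were found for 280 higher and 497 lower genes. Fewer than 10 reads in the lower body part were found for 26 higher (9.2%) and 147 lower genes (25.3%). Those genes passed the count filter through the other body part, which favours steep values, and its part in the contrast was not tested. Each pool showed the steeper falls on the TMM scale. The median log2 difference of the higher genes was 1.97, 1.80 and 1.57 in pools 3, 4 and 7. For the lower genes it was -3.59, -2.78 and -2.51.

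The groups were also compared without a model, by the overlap of their TMM-scaled CPM values. These values carry the scaling of the fit, so their balance between directions is no independent check. All 3 egg values lay above all 3 carcass values for 659 tested genes (19.0%), and all 3 carcass values lay above all 3 egg values for 822 (23.7%). Among the called genes the groups did not overlap for 280 of the 282 higher and 572 of the 581 lower genes. Among the 2604 genes that were not called, 629 did not overlap either.

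In each direction, 2 genes are named: the one with the largest fitted fold change and the one with the highest level. The largest fitted change toward eggs belonged to snap_masked-falcon_000026F-processed-gene-4.124-mRNA-1, a short model of 312 bases. It had 15 reads in eggs of pool 3, 9 in pool 4 and 19 in pool 7, and 0 reads in the 3 carcass libraries. The egg level was 55.8 ± 10.7 CPM (SD, n = 3), at least 10.6-fold higher than in carcass, where the bound compares reads summed over each group with 3 reads in the 3 carcass libraries and covers counting error only. This gene passed the count filter through the eggs alone, so it had to differ, and no p-value is given.

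The most abundant gene among those higher in eggs was maker-falcon_000011F-augustus-gene-9.34-mRNA-1, of 2082 bases. Its egg levels were 2770 CPM in pool 3, 2490 in pool 4 and 4980 in pool 7. Its carcass levels were 320, 369 and 1050 CPM. Pool 7 was the highest in both body parts, and the lowest egg library was above the highest carcass library (log2 fold change 2.54 ± 0.61 (SE), edgeR adjusted p = 0.00941). The gene was also read in other body parts, at a mean of 547 CPM in hemocytes and 86.7 CPM in antenna on the scale of all 21 libraries, where eggs stood at 2310 CPM.

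The largest fitted change toward carcass belonged to maker-falcon_000022F-augustus-gene-8.11-mRNA-2, of 833 bases. It had 0 reads in each egg library and 148, 89 and 204 reads in carcass of pools 3, 4 and 7. The carcass level was 804 ± 141 CPM (SD, n = 3), so the egg level was at least 199-fold lower. It passed the filter through carcass alone, and no p-value is given for the same reason. On the scale of all 21 libraries the gene averaged 525 CPM in carcass, 445 in gut and 223 in hemocytes, and 30.1 or less in carapace, antenna and head. The gut mean rests on 44 reads in pool 3, with 0 in pools 4 and 7. Hemocytes stood at 34.4, 43.4 and 593 CPM in pools 3, 4 and 7, and carcass at 617, 524 and 434.

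The most abundant gene among those lower in eggs was maker-falcon_000004F-augustus-gene-31.49-mRNA-1, of 6383 bases. Carcass levels were 36300 CPM in pool 3, 268000 in pool 4 and 14000 in pool 7, and this 1 gene took 16.85% of the carcass reads of pool 4. Egg levels were 4.53, 333 and 228 CPM, with 1 read in eggs of pool 3. The carcass libraries spread widely but none came near the egg values (log2 fold change -9.14 ± 2.07 (SE), edgeR adjusted p = 0.00662). Against the other 33956 models of the table, none of these 4 had a counterpart whose counts over the 21 libraries differed by under 5% of the pair's reads.

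**Figure D3:**
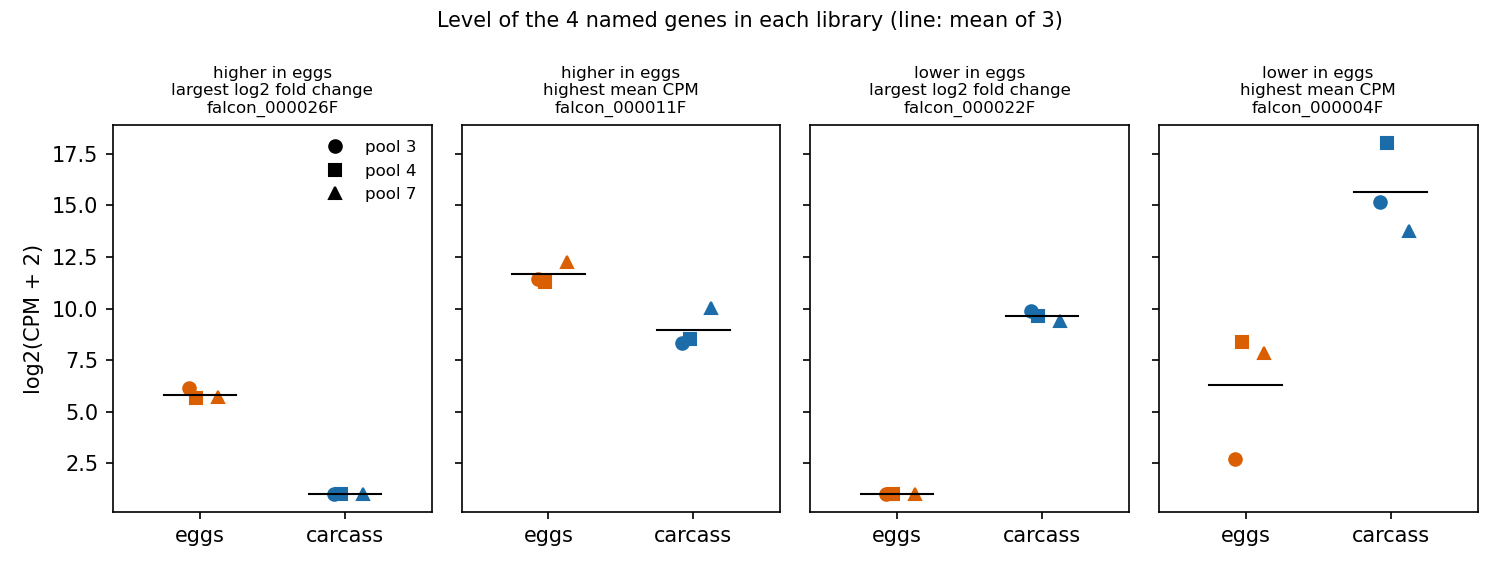
Level of the 4 named genes, as log2(CPM + 2), in each egg and carcass library, with symbols for pools 3, 4 and 7 and a line at the mean of 3. The gene on contig 000026F has no carcass read and the gene on contig 000022F has no egg read, so those points sit at the floor of the scale.

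Beyond the named genes, the rest of the steep end differed between directions. Among genes with more than 3 reads in both body parts, the largest rises in eggs were log2 fold changes of 4.48, 4.21, 4.21 and 4.19. Both genes at 4.21 had 698 egg reads and 27 carcass reads and can hold the same reads, so they are uncertain as separate genes. Among the falls, 27 genes had 0 reads in the 3 egg libraries and 51 to 458 reads in carcass. Their bounds ran from 23.1-fold to 207-fold with a median of 73.7-fold. These 27 passed the count filter through carcass alone, so they had to differ. With them placed at their bounds, the median log2 fold change of the lower genes stayed at -2.87. In all, 147 of the 581 lower genes (25.3%) had fewer than 10 reads in eggs, and 26 of the 282 higher genes (9.2%) had fewer than 10 in carcass. So few reads over 3 libraries cannot meet the count filter, so these genes depended on the other body part to pass. That favours their calls. Further called genes may have passed in the same way, and they were not counted.

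The most abundant called genes were far more abundant in carcass than in eggs. The 5 most abundant genes higher in eggs lay between 2200 and 3410 CPM in eggs and between 403 and 580 CPM in carcass, with log2 fold changes of 2.44 to 2.84. The 5 most abundant genes lower in eggs lay between 10600 and 106000 CPM in carcass. For 3 of them the egg level was 188 CPM or less, while the other two, both on contig 000005F, kept 2060 and 1170 CPM in eggs.

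Genes that were well counted were more often lower in eggs. When the 3467 genes were split into 5 classes of like size by their reads over the 6 libraries, 10.9% of the least counted class (42 to 89 reads) were lower in eggs, against 27.7% of the most counted class (408 reads or more). The shares that were higher in eggs were 11.7% and 6.92%. By length, 22.9% of the shortest class (126 to 1176 bases) were lower in eggs and 13.9% to 16.7% of the other classes. The share higher in eggs ran from 5.76% in the longest class to 10.1% at 1177 to 2160 bases. These splits describe the calls and were not tested. The split by reads used the same 6 libraries as the calls, and carcass held more of their reads (856093, against 661067 in eggs). It can therefore place genes lower in eggs in the most counted class.

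The called genes made up different parts of each library. The 282 higher genes took 10.97%, 11.23% and 10.18% of egg reads and 1.09%, 1.48% and 2.01% of carcass reads. The 581 lower genes took 5.97%, 7.38% and 7.93% of egg reads and 41.23%, 43.31% and 34.97% of carcass reads. These 6 libraries chose the genes, so the shares only describe them. In the other 15 libraries the higher set took 0.22% to 3.5% of the reads (median 0.75%), below every egg library. The lower set took 13.8% to 69.0% (median 30.4%), above every egg library. Genes picked as high or low in the eggs favour both orders, so these values are a description too. The head spread most, with 20.17% in pool 3, 68.99% in pool 4 and 56.63% in pool 7, and the gut libraries, at 13.81% to 27.6%, rest on 4161 to 32202 reads each.

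**Figure D4:**
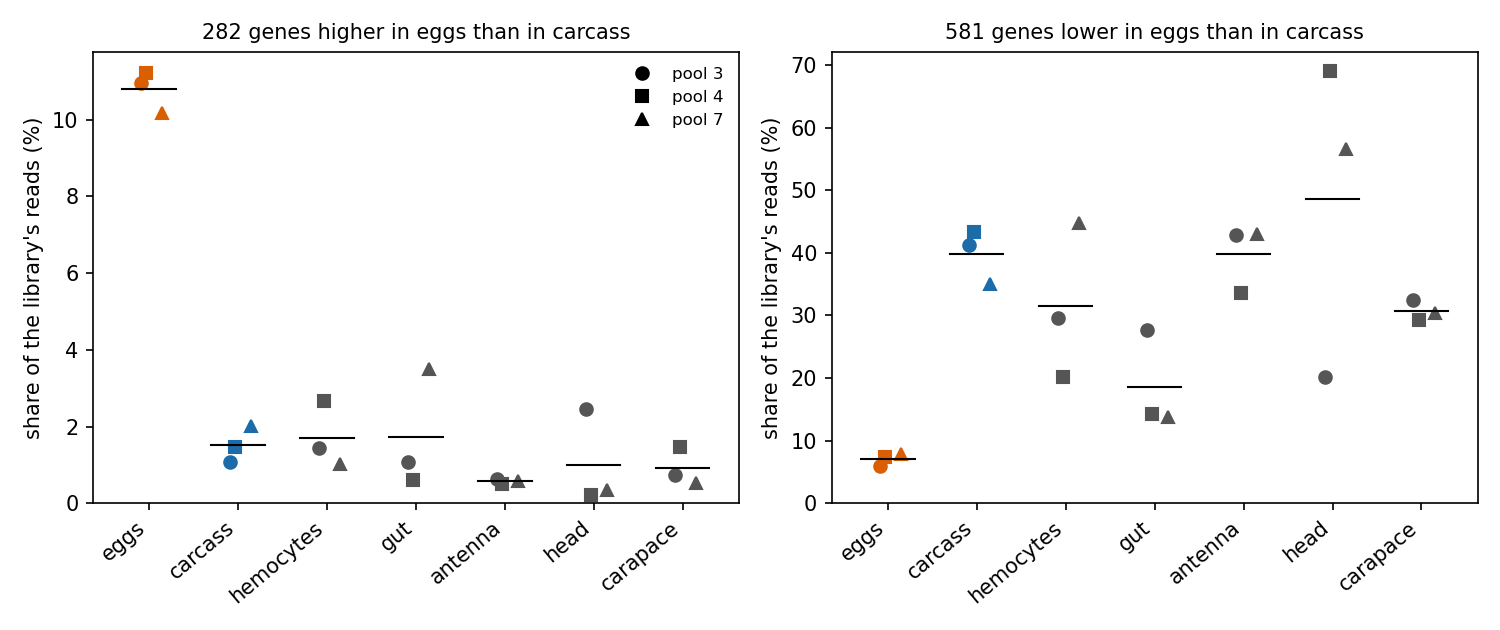
Share of a library's reads (%) on the 282 genes higher in eggs than in carcass (left) and on the 581 lower genes (right), for all 21 libraries, with a line at the mean of 3 per body part. Outside eggs the first set stays at 3.5% or less, and outside eggs the second set stays at 13.8% or more.

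Eggs stood at the top of the 7 body parts for most of the higher genes and at the bottom for most of the lower ones. By mean CPM, eggs had the highest level for 94.7% of the 282 higher genes, against 30.2% of all tested genes. Eggs had the lowest level for 85.7% of the 581 lower genes, against 23.3% of all tested genes, and for 94.5% against 32.4% with the shallow gut left out. The choice of genes favours these shares, so no test is given. The median level of the lower genes was 21.9 CPM in eggs, 95.7 in gut and between 203 and 261 in the other 5 body parts. The carcass itself was the highest body part for 134 of the 581 lower genes (23.1%), against 9.3% of all tested genes. The antenna was the highest for 158 (27.2%, against 16.3% of all tested genes) and the carapace for 150 (25.8%, against 19.6%). The head was the highest for 67 (11.5%, against 9.8%), hemocytes for 53 (9.1%, against 9.4%) and gut for 19 (3.3%, against 5.3%). Eggs were the highest for 0 of the lower genes, which by itself raises the shares of the other body parts. The genes highest in carcass had a median log2 fold change of -3.92 and those highest in antenna -3.84, whereas those highest in carapace had -2.21. The fold change is taken against carcass, so grouping by the highest body part favours a steep fall for genes highest in carcass.

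The called genes were also counted by contig. The identifiers name a contig and, before the point, a number that was read here as a stretch of the contig, as in MAKER-style names, which could not be checked against an annotation. Of all tested genes, 93.6% shared a stretch with another tested gene. Of the 581 lower genes, 323 (55.6%) shared a stretch with another lower gene. Of the 282 higher genes, 76 (27.0%) shared one with another higher gene, although a shorter list has fewer chances to share. Among the 285 stretches with at least 5 tested genes, more than 50% of the genes were lower in 14 and higher in 1. No stretch held more than 3 higher genes, whereas 1 held 9 lower genes. These counts were not tested, and the share that falls together without any grouping was not determined.

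On contig 000036F, 28 of the 46 tested genes were lower in eggs (60.9%, against 16.8% of all tested genes) and 3 higher. Larger contigs held more lower genes, up to 41 on 1 contig, and 2 contigs with fewer tested genes had larger shares, 64.3% and 80.0%. Its stretch 3 held 7 tested genes, all lower, with log2 fold changes from -6.74 to -5.11. Together these 7 had 8 reads in eggs of pool 3, 56 in pool 4 and 128 in pool 7, against 1883, 970 and 5770 in carcass. Stretch 5 had 6 of 6 genes lower, of which 1 had 0 egg reads and the other 5 had log2 fold changes from -5.29 to -2.69. Stretch 7 had 6 of 8 lower, down to -8.15 for a gene with only 4 egg reads. The 7 genes of stretch 3 were also read widely outside carcass. Their summed level was 38900 ± 10800 CPM in antenna (SD, n = 3), 15000 ± 13000 in hemocytes (SD, n = 3), 8620 ± 3360 in carcass (SD, n = 3) and 152 ± 112 in eggs (SD, n = 3).

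In stretch 16 of contig 000026F, 7 of 7 genes were lower. Of these, 2 had 0 egg reads and none had more than 5, so single fold changes are not given. The 7 genes together had 0 reads in eggs of pools 3 and 4 and 14 in pool 7, against 1033, 432 and 2890 in carcass. Their summed level was 4330 ± 1810 CPM in carcass and 5120 ± 3080 in antenna (SD, n = 3 each). Stretch 2 of contig 000079F held the most lower genes, 9 of 11, and also 1 gene higher in eggs with a log2 fold change of 2.50. That gene had 2400 CPM in eggs and 425 CPM in carcass. The summed reads of the stretch overlapped between the body parts, with 0.26% to 0.33% of egg reads and 0.16% to 0.42% of carcass reads. Stretch 33 of contig 000005F had 8 of 14 genes lower and included both abundant genes of that contig described above. Its summed level was 3160 ± 1960 CPM in eggs, 31600 ± 16500 in carcass and 221000 ± 133000 in antenna (SD, n = 3 each). Stretch 23 of contig 000016F had 7 of 9 lower, with carcass at 23900, 1790 and 4680 CPM in pools 3, 4 and 7 and eggs at 241 to 327. In head the stretch stood at 1440, 600000 and 138000 CPM in these pools.

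**Figure D5:**
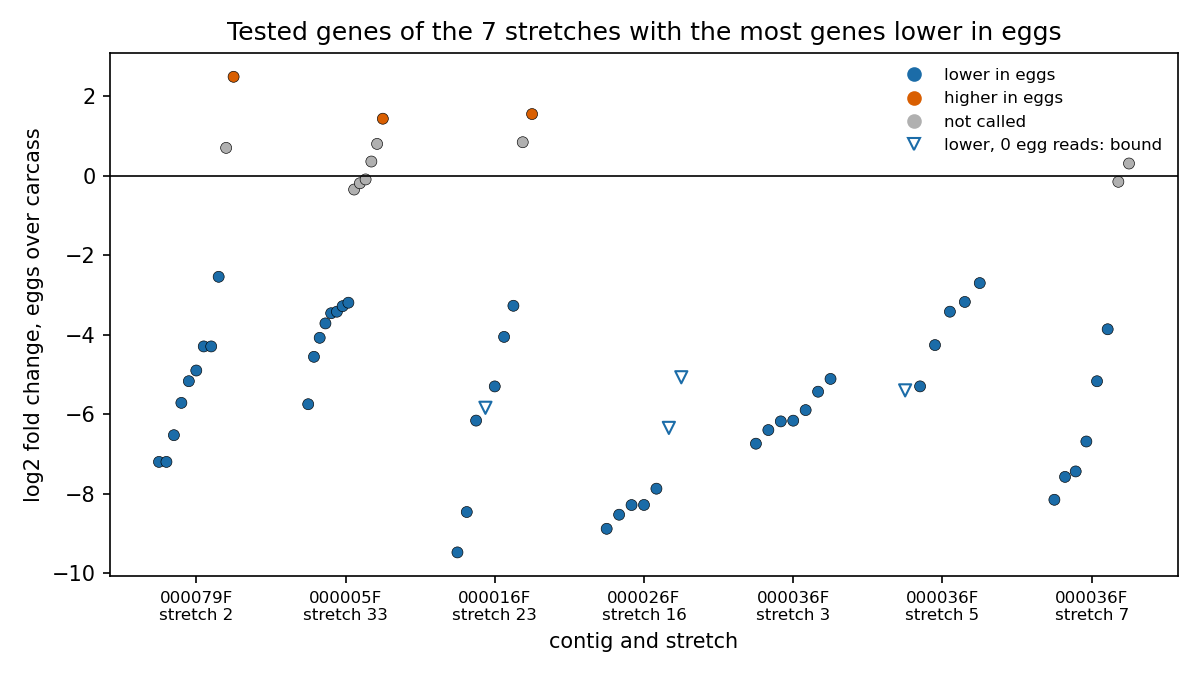
log2 fold change (eggs over carcass) of every tested gene in the 7 stretches with at least 6 genes lower in eggs, coloured by call, with open triangles at the bound of genes with 0 egg reads. All genes of stretches 3 and 5 of contig 000036F and of stretch 16 of contig 000026F lie below 0, whereas each of the other 4 stretches also holds a gene above 0.

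Some of these models can hold the same reads. Between 188 pairs of tested models, counts over the 21 libraries differed by under 5% of the pair's reads, and 65 of these pairs lay in 1 stretch. Of the called genes, 22 higher and 66 lower had such a counterpart. With linked models counted once, 270 were higher and 546 lower. The leading stretches changed little by this count: 7 of 9 in stretch 2 of contig 000079F, and 6 of 6 in stretch 16 of contig 000026F and in stretch 3 of contig 000036F, were lower.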

How the data were processed

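The authors deposited 1 table of whole read counts per model transcript and library, with an RPKM value and the model's length in bases, per the file headers. SAMtools and DESeq2 appear in the submitters' processing notes. The aligner, genome build and annotation were not given in the sources used here. In the deposited RPKM values 1 read had the same worth in all body parts of a pool (implied totals 926451, 988239 and 2424632 reads, the sums over each pool), so RPKM was not used to compare body parts.

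For the test, counts of the 6 libraries went into edgeR 4.0.16 (R 4.3.3) with filterByExpr with a minimum count of 10, TMM factors (0.689 to 1.439), and a quasi-likelihood fit with 1 mean per body part (common dispersion 0.152, prior degrees of freedom 8.1). No other body part entered the fit. A prior count of 2 was added for log2 CPM. Levels across all 21 libraries used TMM factors computed over the same genes. Genes at a common depth are expected values for sampling without replacement. Measures of whole libraries were compared by exact permutation of the libraries. Named genes had to be called, to differ the same way in 3 of 3 pools and not to overlap between groups, and were the largest change and the highest level in each direction. At most 2 identifiers in each direction are given, because they carry no names; the most counted model was added after its values were seen. The fits were tested on simulated data with as many rises as falls and the same spread in both body parts. That simulation does not cover the scaling or the unlike spread of these libraries. The comparison and the tests were chosen with earlier results of these data known.

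Within each body part, every pair of libraries differed beyond counting noise (chi-square per degree of freedom 4.05 to 25.1). Per the labels, libraries with 1 replicate number were barcoded into 1 pool, so libraries are paired by pool. Their deviations from the body part means correlated at -0.032 in pool 3, 0.293 in pool 4 and 0.332 in pool 7. The block was an alternative, beside RLE and total-read scaling, other filters, DESeq2 1.42.0, limma 3.58.1 with voom, all 21 libraries in 1 fit, equal depth, a null fold of 2 and each library left out. Bounds and counts of reads cover counting error only.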

Additional observations from a re-analysis of the deposited data

How the results depend on the processing

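Both counts of genes stayed within 1.5 times their value with RLE factors, DESeq2, limma voom, equal depth and linked models counted once (chosen after seeing the data). With the pool number as a replicate block, 390 genes were higher and 663 lower. Total-read scaling gave 1231 higher and 372 lower, as its scaling shifts all fold changes. A minimum count of 30 gave 184 and 319 from 1453 genes tested. Without a count filter 1300 genes were lower from 16004 tested, and with all 21 libraries in 1 fit 176 were higher; the cause of these was not tested. Against a fold of 2, a stricter null hypothesis, 78 were higher and 371 lower. Without 1 library, 134 to 337 genes were higher, from 3470 to 4576 genes tested. In all of these 6 fits 97 of the 282 higher genes (34.4%) and 333 of the 581 lower genes (57.3%) were called. In each of the 16 alternative fits 0 genes changed direction between calls. Of the 4 named genes, the 2 with reads in both body parts kept their call in all 16 alternative fits, with adjusted p-values up to 0.043. The other 2 passed the count filter through 1 body part alone, so their calls in these fits add no support. The difference in genes seen was -30.1 at 79577 reads, and that in mean length turned to 56.1 bases (eggs minus carcass) without the 10 most counted genes. Genes with few reads limit the rest: 12537 genes with a read were not tested.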
